A study of Mus musculus with 23 samples.

Results

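Sdk2, Rtn4r, Shisa6, Unc5a, Lrrc4b and Abtb3 are 6 mouse genes for adhesion, guidance and receptor proteins studied mainly in neurons. They were chosen by name, for transcripts that differed strongly between treated and control hearts in at least 1 of 2 models, out of 52392 genes whose read counts in whole hearts could be recovered. All 6 were found, and all 6 passed the minimum of a mean of 10 normalised counts in both models. The group differences of these 6 genes chose them and are therefore described below without any test.

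The hearts came from 2 mouse models of HFpEF, heart failure in which the ejection fraction is preserved, on the C57BL/6J background, each with its own controls in its own sequencing run. HFD+L-NAME mice were wild type and were given, from 10 weeks of age and for 15 weeks, chow with 60 kcal% fat together with 0.5 g/L of the nitric oxide synthase inhibitor L-NAME in the water (n = 4, 2 female). Their controls were wild-type mice of the same age on standard chow (n = 4, 2 female), and these 8 libraries formed run 1. The db/db+Aldo mice were Leprdb/db homozygotes, obese and diabetic for want of a working leptin receptor, with minipumps delivering d-aldosterone at 0.3 µg/h for 4 weeks from 12 weeks of age (n = 8, 4 female). Their sham controls were wild-type mice with pumps holding vehicle alone for 4 weeks, also from 12 weeks of age (n = 7, 4 female). Both of these groups ate normal chow, and their 15 libraries formed run 2. Genotype and aldosterone cannot be told apart in one model, nor diet and L-NAME in the other, and model and run coincide, so no level was compared across runs. The 23 libraries summed to between 21258779 and 25692431 recovered counts. The heart muscle genes Myh6, Tnnt2 and Actc1 were abundant in every library, the lowest value being 80911 normalised counts for Tnnt2 in run 1. A whole heart mixes muscle with vessel, connective, immune and nerve cells, so fewer cells of a type and less RNA per cell cannot be told apart.

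Axon guidance and synaptic adhesion proteins sit at the cell surface, where a receptor on one cell meets a ligand that is secreted, or carried by a neighbouring cell, and the contact attracts, repels or anchors a growing process. In the heart the same families take part in the patterning of vessels and of the autonomic nerves that run through the muscle. Sdk2 is a homophilic adhesion molecule of the immunoglobulin superfamily that matches synaptic partners in the mouse retina, and Lrrc4b is a leucine-rich-repeat protein of excitatory synapses that binds the receptor phosphatase Ptprf. Rtn4r is the lipid-anchored Nogo receptor, which binds Nogo (the product of Rtn4) and other myelin inhibitors of axon growth, and Unc5a is a netrin receptor that mediates repulsion. Shisa6 is an auxiliary protein of AMPA-type glutamate receptors, and Abtb3, formerly Btbd11, encodes a protein with ankyrin repeats and a BTB domain, a fold for contacts between proteins.

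The genes lie on 5 chromosomes (GRCm38, GENCODE M21), and all are protein coding. Sdk2 spans 113776374 to 114067046 on the minus strand of chromosome 11, and Shisa6 lies at 66211725 to 66525964 on the same strand of that chromosome. Rtn4r occupies 18127642 to 18152408 on the plus strand of chromosome 16. Unc5a occupies 54949411 to 55006018 on the plus strand of chromosome 13. Lrrc4b lies at 44429018 to 44463351 on the plus strand of chromosome 7, and Abtb3 at 85386814 to 85660292 on the plus strand of chromosome 10. Exons of Unc5a overlap exons of the hexokinase gene Hk3 on the opposite strand. Whether counting used strand is not given in the sources used here, so reads from the overlapping part may not be told apart. Shisa6 overlaps the transcript Gm12296 on the opposite strand, but not in exons.

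RefSeq promoter windows on GRCm38.p6, from 250 bases before to 50 bases after a transcript start, matched 5 of the 6 genes, Abtb3 with 2 windows. The 250 bases before the start are shown for Rtn4r and Abtb3, which were both low in db/db+Aldo hearts, for Sdk2, which was high there, and for Unc5a, which of the 6 differed most in HFD+L-NAME hearts. Each is written 5′ to 3′ along the gene's own strand, and capitals mark matches, on either strand, to the GC box GGGCGG, to the steroid response site AGAACA or to GGACAG, the right part of the RE1 element bound by the neuronal repressor REST.
Rtn4r, chr16:18127392-18127641, plus strand: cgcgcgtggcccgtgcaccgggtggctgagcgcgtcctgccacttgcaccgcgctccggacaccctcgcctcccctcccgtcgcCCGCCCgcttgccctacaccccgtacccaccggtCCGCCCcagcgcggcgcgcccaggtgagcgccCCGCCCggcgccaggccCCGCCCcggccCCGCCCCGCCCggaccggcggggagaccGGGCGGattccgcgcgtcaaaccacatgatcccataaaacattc
Abtb3, chr10:85386564-85386813, plus strand: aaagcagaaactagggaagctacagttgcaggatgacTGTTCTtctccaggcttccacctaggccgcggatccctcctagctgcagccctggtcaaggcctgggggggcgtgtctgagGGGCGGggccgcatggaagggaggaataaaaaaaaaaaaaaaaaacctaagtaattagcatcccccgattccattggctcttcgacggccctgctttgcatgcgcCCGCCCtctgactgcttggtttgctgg
Sdk2, chr11:114067030-114067279, minus strand: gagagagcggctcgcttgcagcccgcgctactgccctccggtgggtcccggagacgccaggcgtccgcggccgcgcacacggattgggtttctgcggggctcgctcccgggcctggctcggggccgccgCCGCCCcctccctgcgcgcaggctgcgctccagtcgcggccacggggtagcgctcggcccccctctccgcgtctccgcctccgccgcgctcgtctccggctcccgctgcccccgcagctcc
Unc5a, chr13:54949161-54949410, plus strand: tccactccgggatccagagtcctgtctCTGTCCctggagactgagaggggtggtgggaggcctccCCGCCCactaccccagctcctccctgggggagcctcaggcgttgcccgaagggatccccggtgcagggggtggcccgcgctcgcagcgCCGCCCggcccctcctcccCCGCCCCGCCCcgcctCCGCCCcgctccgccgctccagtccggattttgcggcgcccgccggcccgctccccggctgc

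Over the 300-base windows, the GC content was 76.7% for Sdk2, 78.0% for Rtn4r, 78.3% for Unc5a, 66.3% for Lrrc4b, and 57.3% and 52.0% for the windows of Abtb3, against a median of 53.0% over all 32544 windows. The GC box stood in 4 of the 5 genes and in 35.9% of all windows, with 7 matches in Rtn4r, 5 in Unc5a, 2 in Abtb3 and 1 in Sdk2. A pair of neighbouring GC boxes shares 1 base in Rtn4r, and another pair does so in Unc5a. The steroid site AGAACA occurred once, in Abtb3, and in 18.9% of all windows. GGACAG matched Unc5a and the second window of Abtb3, against 22.3% of all windows. None of these windows held TTCAGCACC (the left part of RE1, in 0.372% of all windows), the full palindromic steroid response element (0.00922%), the E-box CACGTG (7.17%) or the TATA box TATAAA (13.6%). All motifs were searched on both strands.

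In hearts of db/db+Aldo mice, 1 of the 6 genes was far higher than in sham hearts and 3 were far lower. Sdk2 averaged 6.66 times its sham level, and Shisa6, Rtn4r and Abtb3 averaged 4.40, 3.71 and 3.51 times less than in sham hearts. In these 4 of 6 genes the libraries of both groups did not overlap, 1 with db/db+Aldo hearts above and 3 with them below, which was also so for 4.08% of the 14121 genes tested (2.29% above and 1.79% below). As these values chose the genes, nothing is read from that contrast. Unc5a and Lrrc4b overlapped between the groups. Levels are normalised read counts, and changes are on the log2(normalised count + 1) scale with sex in the model and ± SE.

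Sdk2 had a lowest, median and highest value of 40.9, 138 and 205 normalised counts in db/db+Aldo hearts, against 12.6, 19.3 and 31.3 in sham hearts. Every db/db+Aldo library lay above every sham library, the nearest being replicate 5, which stood alone, far from the other 7 at 122 to 205. Means were 136 ± 47.1 in db/db+Aldo and 20.5 ± 6.73 in sham hearts (SD, n = 8 and 7), with a log2 change of 2.63 ± 0.26. In sham hearts Sdk2 was among the lowest genes tested, since only 0.489% of 14109 genes had a lower count per kb of exon.

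Rtn4r had 84.7, 135 and 231 normalised counts as lowest, median and highest value in db/db+Aldo hearts, and 349.7, 556 and 722 in sham hearts. The highest db/db+Aldo heart, replicate 7, stayed under the lowest sham heart, also replicate 7. Means were 148 ± 57.4 and 549 ± 143 normalised counts in db/db+Aldo and sham hearts, a log2 change of −1.92 ± 0.21. In sham hearts Rtn4r lay above 86.8% of the genes tested by count per kb of exon.

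Shisa6 had a lowest, median and highest value of 16.6, 29.8 and 41.9 normalised counts in db/db+Aldo hearts, against 97.4, 135 and 180.3 in sham hearts. The highest db/db+Aldo library lay far under the lowest sham library. Means were 30.3 ± 8.01 in db/db+Aldo and 133 ± 28.3 in sham hearts, a log2 change of −2.10 ± 0.16. Abtb3 followed the same direction, with 16.4, 26.1 and 35.4 normalised counts in db/db+Aldo hearts against 76.6, 91.5 and 109 in sham hearts. Its groups were far apart and narrow, with means of 26.5 ± 6.73 and 93.1 ± 12.2 and a log2 change of −1.82 ± 0.15.

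The netrin receptor Unc5a had 43.3, 59.6 and 69.6 normalised counts as lowest, median and highest value in db/db+Aldo hearts, against 64.0, 71.1 and 81.7 in sham hearts. Of the 8 db/db+Aldo libraries, 5 lay under every sham library and 3 within the sham range. The log2 change was −0.27 ± 0.11, from means of 59.3 ± 8.98 and 71.1 ± 6.19. Lrrc4b had 313, 468 and 612 normalised counts in db/db+Aldo hearts against 261, 404 and 485 in sham hearts, with only 2 of 8 db/db+Aldo libraries outside the sham range. Its log2 change was 0.19 ± 0.12 with size factors and −0.0100 with total-count scaling, so it had no direction that held under both scalings.

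**Figure D1:**
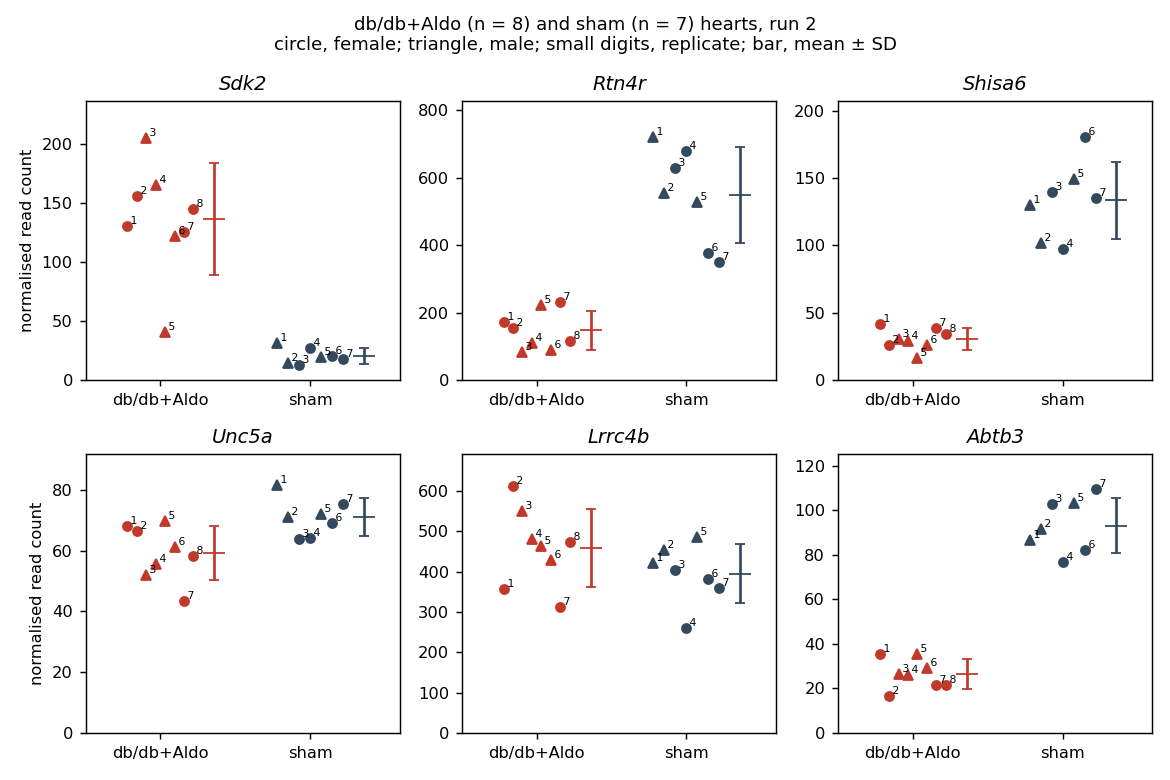
Normalised read counts of the 6 genes in each heart of run 2, db/db+Aldo (left, n = 8) and sham (right, n = 7), with circles for females, triangles for males, small digits for replicates and bars for the mean ± SD; each panel has its own axis. Sdk2 lies above all sham hearts, Rtn4r, Shisa6 and Abtb3 below them, and Unc5a and Lrrc4b overlap.

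In run 2 the library names fall into series, and both the 3-digit and the 4-digit names hold hearts of both groups. Names ending in B belong to 2 libraries, both of db/db+Aldo females and without a sham counterpart. They are left out of the differences within series. Among 3-digit names (2 db/db+Aldo and 4 sham libraries) the log2 differences were 3.14 for Sdk2, −2.72 for Rtn4r, −1.92 for Shisa6, −1.73 for Abtb3, −0.37 for Unc5a and 0.45 for Lrrc4b. Among 4-digit names (4 and 3 libraries) they were 2.29, −1.43, −2.44, −1.85, −0.33 and 0.029 in the same order. The sexes are unequal here, since both db/db+Aldo libraries with 3-digit names are male, against 2 male and 2 female sham libraries, and the 4-digit names hold 2 male and 2 female db/db+Aldo against 1 male and 2 female sham libraries, so these differences mix sex with treatment. Rtn4r also differed within the sham group, with a mean of 646 normalised counts for 3-digit and 419 for 4-digit names. The log2 change of Rtn4r stayed between −2.13 and −1.82 over 26 other settings, 1 of which held the series as a covariate. In that setting the 2 libraries with names ending in B add nothing to the estimated change. Whether its change differed between the series was not tested. What the name series stand for is not stated.

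In hearts of HFD+L-NAME mice, a different pair of the 6 genes stood far below the controls. Unc5a averaged 5.10 times less and Lrrc4b 2.47 times less than in chow hearts, and Sdk2 averaged 1.74 times its chow level. These 3 of 6 genes had groups that did not overlap, 1 with HFD+L-NAME hearts above and 2 with them below, as did 8.2% of the 13801 genes tested (3.96% above and 4.24% below), and nothing is read from this either, since the choice of genes used this contrast too. Rtn4r, Shisa6 and Abtb3 overlapped between HFD+L-NAME and chow hearts.

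Unc5a had 59.7, 4.04, 4.95 and 3.87 normalised counts in HFD+L-NAME replicates 1 to 4, against 68.0, 100.6, 117 and 83.8 in chow replicates 1 to 4. Replicate 1, a male, sat just under the lowest chow heart, while the other male and both females were close to 0, each with 4 or 5 recovered reads against 55 in replicate 1. Means were 18.2 ± 27.7 and 92.5 ± 21.3 (SD, n = 4 each), with an SD above the mean in HFD+L-NAME hearts, and the log2 change was −3.24 ± 0.63. Without replicate 1 it was −4.15. Hk3, whose exons overlap Unc5a, had 29.3, 15.2, 19.8 and 22.2 normalised counts in HFD+L-NAME hearts against 8.12, 25.6, 11.7 and 8.77 in chow hearts (log2 change 0.74 ± 0.37, limma adjusted p = 0.370). In run 2, Hk3 averaged 17.8 ± 6.29 in db/db+Aldo and 16.3 ± 5.17 in sham hearts (limma adjusted p = 0.873).

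Lrrc4b had 138, 130.4, 213 and 131 normalised counts in HFD+L-NAME replicates 1 to 4, against 513, 263, 338 and 398 in chow replicates. All 4 HFD+L-NAME hearts lay under all 4 chow hearts, with replicate 3 apart from the other 3. Means were 153 ± 39.9 and 378 ± 106 in HFD+L-NAME and chow hearts, a log2 change of −1.29 ± 0.20. Sdk2 had 59.7, 41.4, 33.6 and 30.0 normalised counts in HFD+L-NAME hearts and 19.3, 27.5, 19.6 and 28.3 in chow hearts. Its groups did not overlap, but the lowest HFD+L-NAME heart was within 2 counts of the highest chow heart. The log2 change of Sdk2 was 0.75 ± 0.24.

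Rtn4r had 501, 678, 458 and 471 normalised counts in HFD+L-NAME hearts, against 358, 480.2, 245 and 363 in chow hearts. Here 2 of 4 HFD+L-NAME hearts lay above all chow hearts, and the log2 change was 0.56 ± 0.14. Shisa6 had 109, 77.8, 75.2 and 83.1 in HFD+L-NAME hearts, against 105, 123, 109.7 and 133 in chow hearts. For Shisa6, 3 of 4 HFD+L-NAME hearts lay below all chow hearts, and the log2 change was −0.45 ± 0.14. Abtb3 had 64.1, 60.6, 54.4 and 78.3 normalised counts in HFD+L-NAME hearts and 57.9, 79.7, 80.3 and 69.2 in chow hearts, with a log2 change of −0.16 ± 0.16 that is within its error.

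**Figure D2:**
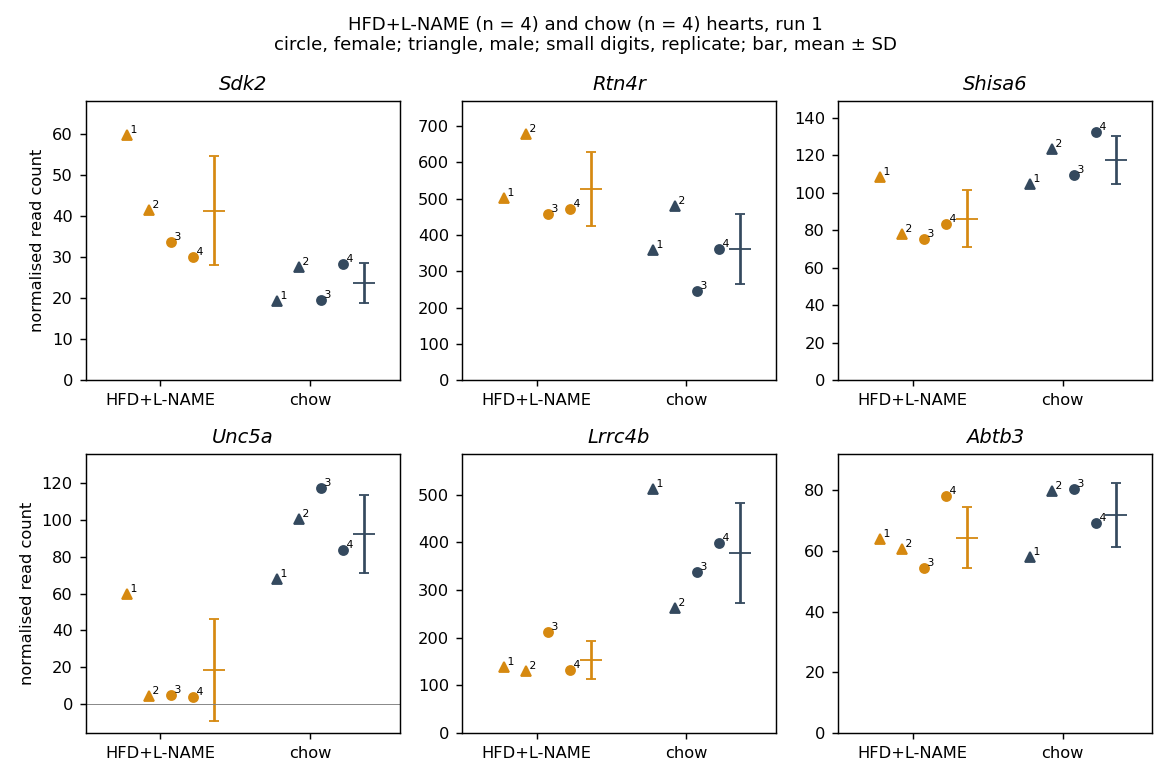
Normalised read counts of the 6 genes in each heart of run 1, HFD+L-NAME (left, n = 4) and chow (right, n = 4), with circles for females, triangles for males, small digits for replicates and bars for the mean ± SD, which for Unc5a reaches below 0. Unc5a is close to 0 in 3 HFD+L-NAME hearts and at 59.7 in replicate 1, and all 4 HFD+L-NAME hearts lie below the chow hearts for Lrrc4b.

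Set side by side, each model's change came from its own controls. Sdk2 was higher in both models, with log2 changes of 2.63 in db/db+Aldo and 0.75 in HFD+L-NAME hearts, and Shisa6 was lower in both, at −2.10 and −0.45. The Nogo receptor Rtn4r was at −1.92 in db/db+Aldo and 0.56 in HFD+L-NAME hearts, opposite in sign, although its HFD+L-NAME and chow libraries overlapped. Unc5a and Lrrc4b differed most in HFD+L-NAME hearts, and Abtb3 in db/db+Aldo hearts. The difference between the models was not tested, because both contrasts chose the genes.

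Per kb of exon, the 6 genes spanned a wide range of levels. In db/db+Aldo hearts Lrrc4b was highest at 157 ± 33.0 normalised counts per kb, followed by Rtn4r at 76.3 ± 29.6, Unc5a at 14.2 ± 2.15, Sdk2 at 8.81 ± 3.05, Shisa6 at 4.07 ± 1.07 and Abtb3 at 2.64 ± 0.67. In sham hearts Rtn4r led at 283 ± 73.7 per kb, followed by Lrrc4b at 135 ± 24.8, Shisa6 at 17.9 ± 3.80, Unc5a at 17.1 ± 1.49, Abtb3 at 9.28 ± 1.22 and Sdk2 at 1.32 ± 0.44. Neighbours in the db/db+Aldo order overlapped in range, except Rtn4r and Unc5a, and among sham hearts the neighbours Shisa6 and Unc5a overlapped. Sdk2, last in sham hearts, ranked above Shisa6 and Abtb3 in db/db+Aldo hearts.

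In HFD+L-NAME hearts the order per kb was Rtn4r at 272 ± 52.8, Lrrc4b at 52.3 ± 13.6, Shisa6 at 11.6 ± 2.06, Abtb3 at 6.41 ± 1.01, Unc5a at 4.35 ± 6.65 and Sdk2 at 2.66 ± 0.86. In chow hearts it was Rtn4r at 187 ± 49.6, Lrrc4b at 129 ± 36.1, Unc5a at 22.2 ± 5.11, Shisa6 at 15.8 ± 1.71, Abtb3 at 7.15 ± 1.05 and Sdk2 at 1.53 ± 0.32. The ranges of Unc5a overlapped those of Shisa6, Abtb3 and Sdk2 in HFD+L-NAME hearts, through its single high library. Among chow hearts Rtn4r overlapped Lrrc4b, and Unc5a overlapped Shisa6.

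**Figure D3:**
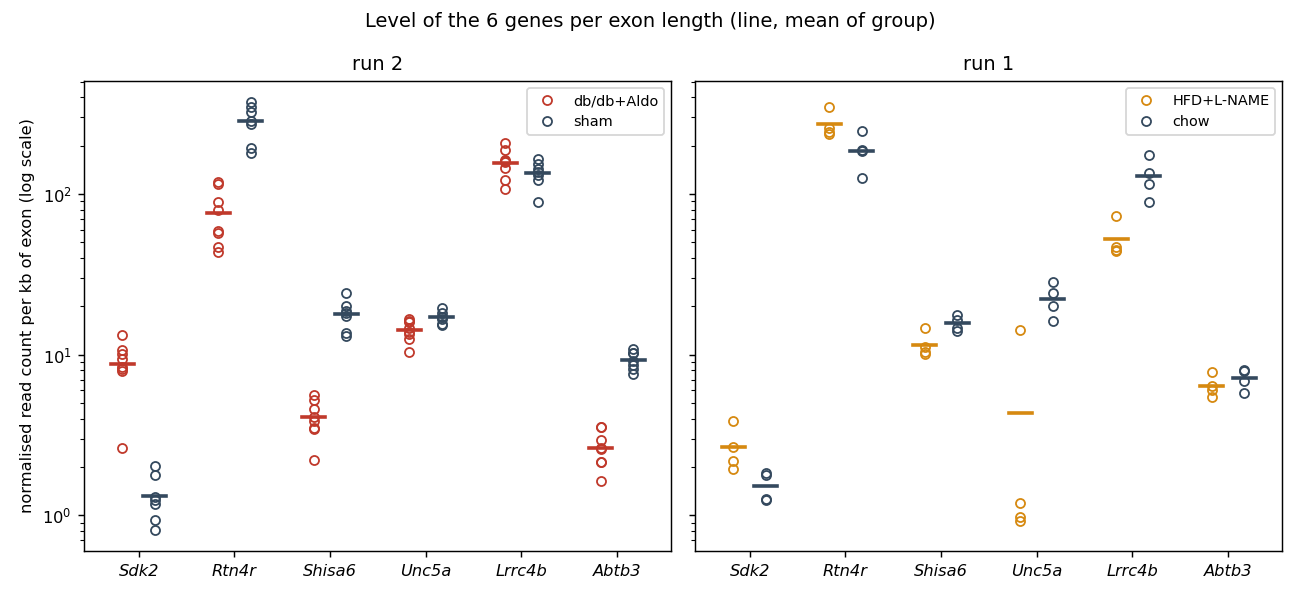
Normalised read counts per kb of exon on a log scale for the 6 genes, 1 circle per heart and a line at the group mean, with db/db+Aldo left of sham (run 2) and HFD+L-NAME left of chow (run 1); levels are not comparable across the panels. Rtn4r and Lrrc4b lead in every group, and Sdk2 is lowest in the sham, HFD+L-NAME and chow groups by the mean.

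Sex played no part in choosing the genes, so it was tested. Of the 6 genes, 0 passed in any of the contrasts of females with males within a group, or of the treatment effect in females with that in males (limma, Benjamini-Hochberg over all genes tested, 0.05). Over all genes tested, 0.0567% passed within db/db+Aldo, 0.0637% within sham, 0.254% within HFD+L-NAME and 0.109% within chow hearts, and the interaction called 0% in the db/db model and 0.00725% in the other. Without adjustment, 1 of 6 passed 0.05 within db/db+Aldo hearts and 1 of 6 within chow hearts. Shisa6 was higher in females within db/db+Aldo hearts by 0.46 ± 0.22 on the log2 scale (limma adjusted p = 0.9997). Rtn4r was lower in females within chow hearts, at −0.48 ± 0.20 (limma adjusted p = 0.620). In the other contrasts 0 of 6 passed unadjusted. These contrasts compare few hearts, and their intervals stay wide. For Rtn4r the treatment effect in females minus that in males was 0.77 ± 0.41 in the db/db model, with an interval (± 2 SE) of −0.048 to 1.58.

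The widest interval was that of Unc5a in the diet model. Its female minus male difference within HFD+L-NAME hearts was −1.70 ± 0.81 (limma adjusted p = 0.455), and without the low male, replicate 2, it was −3.50 ± 0.37 (limma adjusted p = 0.00188), which then sets both females against replicate 1 alone. The treatment effect in females minus that in males was −1.96 ± 1.15 (limma adjusted p = 0.818) with all libraries and −3.76 ± 0.47 (limma adjusted p = 0.0362) without replicate 2. Females had Unc5a means of 4.41 normalised counts in HFD+L-NAME and 100.7 in chow hearts, and males 31.9 and 84.3.

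The wider families of the 6 genes were read in 9 lists of 214 genes in all, which hold none of the 6 themselves. In db/db+Aldo hearts 17 list genes rose and 20 fell among 146 tested (25.3%), against 9.96% and 9.21% of all 14121 genes (19.2% in either direction), and the median log2 change was −0.021 over the lists and −0.015 over all genes. With total-count scaling, which shifts the median gene by −0.20, the split was 11 and 47, and over all genes the share of calls that were higher was 10.5% in place of 52.0%. In HFD+L-NAME hearts 1 list gene rose and 3 fell among 143 tested (2.8%), against 1.18% and 1% of all 13801 genes (2.18% in either direction), with medians of 0.014 over the lists and −0.00056 over all genes. The adjusted p-values below are limma's, with Benjamini-Hochberg adjustment over all genes.

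Among immunoglobulin-type adhesion molecules, 4 of 22 tested rose and 3 fell in db/db+Aldo hearts. Ncam1, the neural cell adhesion molecule, averaged 237 ± 71.9 normalised counts in db/db+Aldo hearts, against 86.4 ± 12.1 in sham hearts, with no overlap (log2 change 1.43 ± 0.14, adjusted p = 1.55e-06). Sdk1, the paralog of Sdk2, averaged 48.3 ± 7.47 and 28.3 ± 8.36 (0.79 ± 0.18, adjusted p = 0.00432). Igsf9b, a synaptic adhesion molecule, fell (−0.59 ± 0.12, adjusted p = 0.00192). In HFD+L-NAME hearts only L1cam, an axonal adhesion molecule, passed of 22, at 78.5 ± 10.8 against 116 ± 7.07 normalised counts in chow hearts (−0.56 ± 0.12, adjusted p = 0.0371), and Sdk1 did not pass (0.38 ± 0.26, adjusted p = 0.551). The call of L1cam ended under 12 of 18 other settings, with adjusted p up to 0.114, leaving out any library but HFD+L-NAME replicate 1 among them.

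In the Nogo receptor list 4 of 17 rose and 1 fell in db/db+Aldo hearts. Rtn4rl1, a close relative of Rtn4r, averaged 347 ± 79.9 normalised counts in db/db+Aldo hearts, against 184 ± 30.5 in sham hearts (0.91 ± 0.12, adjusted p = 3.15e-05), opposite in sign to Rtn4r. Nogo itself (Rtn4, 0.21 ± 0.10, adjusted p = 0.167) and the co-receptor Lingo1 (0.17 ± 0.21, adjusted p = 0.610) did not pass, although Rtn4 did once replicate 5 of db/db+Aldo was left out (0.28, adjusted p = 0.0193) and without the 5 libraries doubted in an earlier analysis (0.36, adjusted p = 0.00295). The microtubule regulator Dpysl2 fell (−0.27 ± 0.090, adjusted p = 0.0404), a call that ended under 13 of 26 other settings, with adjusted p up to 0.147. Of these 17, 0 passed in HFD+L-NAME hearts, with Rtn4 at 0.13 ± 0.095 (adjusted p = 0.601) and Lingo1 at 0.43 ± 0.32 (adjusted p = 0.597).

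Of the netrin and UNC5 list, 0 of 11 rose and 2 fell in db/db+Aldo hearts, Rgma, a ligand of the netrin receptor neogenin, among them (−0.36 ± 0.096, adjusted p = 0.0118). The ligand netrin 1 (Ntn1) was at −0.065 ± 0.068 (adjusted p = 0.553, and 0.0247 with a change of −0.27 under total-count scaling) and the vascular netrin receptor Unc5b at −0.044 ± 0.086 (adjusted p = 0.765). Of the same list, 0 of 10 passed in HFD+L-NAME hearts, with Ntn1 at −0.13 ± 0.069 (adjusted p = 0.429) and Unc5b at 0.16 ± 0.11 (adjusted p = 0.5675). In the Slit and Robo list the ligand Slit2 rose to 204 ± 54.3 normalised counts in db/db+Aldo hearts, against 113 ± 17.4 in sham hearts (0.82 ± 0.15, adjusted p = 0.000681). Its receptor Robo2 fell to 9.30 ± 5.00, against 31.1 ± 7.17 (−1.73 ± 0.24, adjusted p = 5.84e-05), and the other 6 of 8 tested did not pass. Robo2 met the minimum mean only through the sham group, so the filter favoured a fall.

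Among semaphorins, plexins and neuropilins 4 of 28 rose and 4 fell in db/db+Aldo hearts. The transmembrane semaphorin Sema6b rose (0.64 ± 0.11, adjusted p = 0.000360) and Plxnd1, a receptor of vessel patterning, fell (−0.52 ± 0.099, adjusted p = 0.001055). Of the same 28, 1 rose and 2 fell in HFD+L-NAME hearts. The secreted Sema3f averaged 599.8 ± 80.5 normalised counts in HFD+L-NAME and 350.3 ± 32.9 in chow hearts (0.77 ± 0.086, adjusted p = 0.000611), with no overlap. Sema5a averaged 90.0 ± 7.47 and 132 ± 14.7 (−0.55 ± 0.12, adjusted p = 0.0366), and its call ended under 8 of 18 other settings, with adjusted p up to 0.118. Of ephrins and Eph receptors, 0 of 15 rose and 4 fell in db/db+Aldo hearts, the receptor Ephb1 among them (−0.56 ± 0.14, adjusted p = 0.00753), and 0 of 15 passed in HFD+L-NAME hearts.

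Of leucine-rich-repeat and other synaptic organisers, 3 of 20 rose and 4 fell in db/db+Aldo hearts. Ptprf, the phosphatase that Lrrc4b binds, rose to 263 ± 57.5 normalised counts in db/db+Aldo hearts, against 145 ± 26.0 in sham hearts (0.84 ± 0.14, adjusted p = 0.000332). The postsynaptic Clstn2 fell (−1.12 ± 0.26, adjusted p = 0.00463), but met the minimum mean only through the sham group, so the filter favoured a fall. The paralogs Lrrc4 (−0.040 ± 0.28, adjusted p = 0.939) and Lrrc4c (0.45 ± 0.29, adjusted p = 0.308) did not pass. In HFD+L-NAME hearts 0 of 19 passed, Lrrc4 was at 0.52 ± 0.34 (adjusted p = 0.533), and Lrrc4c was under the minimum, at 10.6 and 7.84 normalised counts in HFD+L-NAME and chow hearts.

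Of Shisa proteins and AMPA receptor partners, 1 of 12 passed in db/db+Aldo hearts. It was the AMPA receptor subunit Gria1, at 16.0 ± 8.63 normalised counts in db/db+Aldo hearts, against 3.31 ± 2.68 in sham hearts (2.08 ± 0.41, adjusted p = 0.00136). Gria1 met the minimum mean only through the db/db+Aldo group, so the filter favoured a rise. It was tested under 20 of 26 other settings, where its change ran from 1.30 to 2.69. Shisa4 was at 0.22 ± 0.13 (adjusted p = 0.243) in db/db+Aldo hearts and at −0.60 ± 0.19 (adjusted p = 0.130) in HFD+L-NAME hearts, where 0 of 11 passed. Of the BTB relatives of Abtb3, Btbd6 alone fell of 14 in db/db+Aldo hearts (−0.30 ± 0.077, adjusted p = 0.0107) and 0 of 14 passed in HFD+L-NAME hearts. The closest relative listed, Abtb2, was at −0.018 ± 0.071 (adjusted p = 0.890) and −0.072 ± 0.080 (adjusted p = 0.745) in the 2 models.

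**Figure D4:**
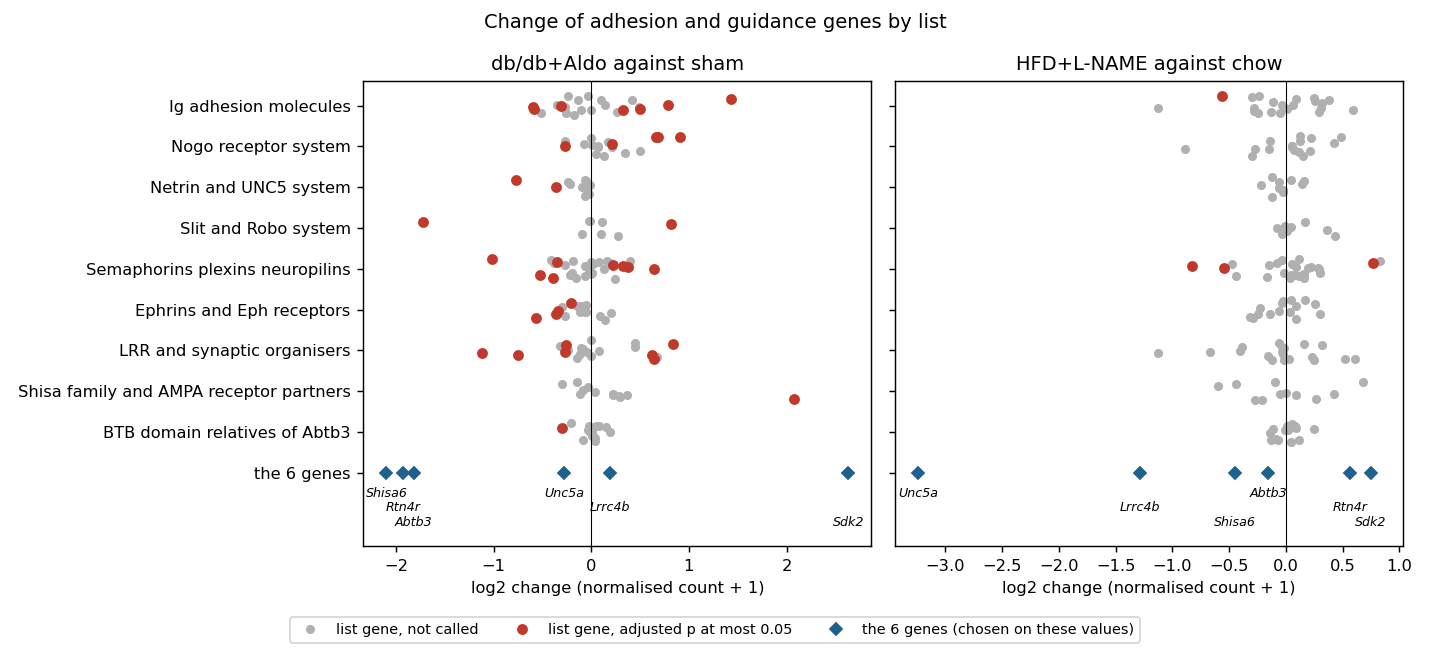
The log2 change of each tested gene of the 9 lists in db/db+Aldo against sham (left) and HFD+L-NAME against chow (right) hearts, red where the limma adjusted p is at most 0.05 and grey otherwise, with the 6 genes as blue diamonds in the bottom row. Most list genes lie near 0 in both models, while 17 rose and 20 fell in db/db+Aldo and 1 rose and 3 fell in HFD+L-NAME hearts.

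Markers of nerve and glial cells were read beside these genes. Of 16 cardiac neuron markers, 12 averaged under 10 normalised counts in both groups of run 2 and 11 did in both groups of run 1. The acetylcholine enzyme Chat, the transporter Slc18a3 and the synaptic gene Snap25 were at 0 in all 8 libraries of run 1, as was the catecholamine enzyme Th. The summed neuron list ranged from 277 to 471 normalised counts in db/db+Aldo hearts, against 263 to 314 in sham hearts, with 1 of 4 tested markers rising and 1 falling. The marker that rose was Dbh, the enzyme that makes noradrenaline, at 163 ± 38.2 normalised counts in db/db+Aldo hearts, against 73.0 ± 11.9 in sham hearts (1.13 ± 0.14 on the log2 scale, limma adjusted p = 1.92e-05), named after its values were seen. Without Dbh the other 15 summed to 143 to 236 in db/db+Aldo and 197 to 257 in sham hearts, with means of 174 and 211. The marker that fell was Stmn2, a neuronal regulator of microtubules (−0.39 ± 0.14, limma adjusted p = 0.0475), and no neuron marker passed in that direction under 14 of 26 other settings. The summed list ranged from 285 to 352 in HFD+L-NAME and 286 to 329 in chow hearts, where 0 of 5 rose and 1 fell. That marker, chosen after its values were seen, was the neuronal tubulin Tubb3, with 2.17, 4.04, 1.98 and 1.93 normalised counts in HFD+L-NAME hearts against 22.3, 33.2, 17.6 and 29.2 in chow hearts (−2.91 on the log2 scale, limma adjusted p = 0.00170). Tubb3 met the minimum mean only through the chow group, at 25.6 against 2.53 in HFD+L-NAME hearts, so the filter favoured a fall. With a minimum mean of 50, 0 neuron markers fell there. Replicate 1, which kept Unc5a near the chow level, was as low in Tubb3 as the other 3.

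The summed Schwann cell list ranged from 1231 to 1443 in db/db+Aldo and 1069.9 to 1265 in sham hearts, with 1 of 9 tested markers rising and 1 falling. Most of each sum was Pmp22, which averaged 957 and 828 of list means of 1308 and 1186. In run 1 the summed list ranged from 982 to 1219.8 in HFD+L-NAME and 1060.3 to 1308 in chow hearts. There Pmp22 averaged 849 and 834 of list means of 1084 and 1214. The median log2 change over the 9 tested markers was 0.043 in db/db+Aldo and −0.63 in HFD+L-NAME hearts. In HFD+L-NAME hearts 0 of 9 rose and 2 fell. These were Gfra3 (adjusted p = 0.00815) and Sox10 (adjusted p = 0.0307), both named after their values were seen. Only 1 of them or none passed under 10 of 18 other settings, leaving out any library but HFD+L-NAME replicate 3 among them. In db/db+Aldo hearts 8 of 12 fibroblast markers rose and 0 fell, with summed levels of 46019 to 53453 against 36449 to 42978 in sham hearts. Of macrophage markers 5 of 12 rose and 0 fell (5687 to 8220.0 against 4471 to 6668), and of smooth muscle and pericyte markers 0 of 11 rose and 2 fell (25699.7 to 29396 against 30900.3 to 36388). Under total-count scaling 3 fibroblast and 3 macrophage markers were higher, 1 fibroblast marker was lower, and 9 smooth muscle and pericyte markers were lower in db/db+Aldo hearts, and without a minimum mean 5 fibroblast markers were higher. In HFD+L-NAME hearts 3 of 12 endothelial markers rose and 0 fell (22678 to 27063 against 19372 to 22974 in chow hearts), with 2 to 4 higher over other settings. Of macrophage markers there, 2 of 12 rose and 0 fell (5710.1 to 8609 against 5609 to 7542), and fewer passed under 13 of 18 other settings. The part of any of these cell types in the values of the 6 genes was not tested.

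The nearest tested genes on either side of the 6 were read as well. In db/db+Aldo hearts Cdc42ep4, the nearest tested gene to Sdk2 at 24493 bases, rose (0.76 ± 0.11, limma adjusted p = 5.14e-05). Prodh, 37439 bases from Rtn4r, fell (−0.51 ± 0.13, limma adjusted p = 0.0101), and so did 4933432I09Rik, 55414 bases on its other side (−1.24 ± 0.21, limma adjusted p = 0.000480). The clock gene Cry1, 201750 bases from Abtb3, fell (−0.54 ± 0.13, limma adjusted p = 0.00511), as did Josd2, 4629 bases from Lrrc4b (−0.28 ± 0.086, limma adjusted p = 0.0276). The nearest tested neighbours of Shisa6 and Unc5a did not pass. Within 500 kb of the 6 genes, 4 of 93 tested genes rose and 6 fell in db/db+Aldo hearts (10.8%), against 19.2% of all genes tested. None of the nearest neighbours passed in HFD+L-NAME hearts, and within 500 kb 1 of 92 rose and 1 fell (2.17%), against 2.18% of all genes tested.

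How the 6 genes varied among hearts of the same group and sex was read apart from the group contrast. After the mean of each group and sex was subtracted, Pearson's r between pairs of the 6 ranged from −0.51 to 0.42 in run 2. Its 15 libraries share run and scaling. Over the 8 libraries of run 1, r ranged from −0.96 (Lrrc4b with Abtb3) to 0.87 (Sdk2 with Shisa6). Run 1 holds 2 libraries per group and sex, so the subtraction leaves each 2 with equal and opposite deviations. Each r in run 1 thus rests on fewer independent values than 8. Among 10489 or 10490 genes searched, the 2 most alike to each in run 2 were named by rule. Their r in run 1 (8 libraries, with the same limit) is given as a second value. Sdk2 varied most like the glycosyltransferase Gcnt2 (r = 0.94, in run 1 0.16) and the retinol dehydrogenase Rdh10 (0.93, −0.011). Rtn4r varied most like Sec22a (0.84, −0.15) and the glycogen regulator Ppp1r3c (0.84, 0.45). Shisa6 varied most like the angiopoietin Angpt1 (0.86, 0.50, with a Spearman's rho of only 0.65 in run 2) and the phosphatase Dusp18 (0.85, −0.21). For Unc5a they were the transcription factor Tcf21 (0.89, 0.63) and Nenf (0.88, −0.39). Lrrc4b was followed by Sema4d (0.93, 0.13) and the calcium channel subunit Cacnb1 (0.90, 0.86), and Abtb3 by the protease Pcsk7 (0.90, 0.42) and the fatty acid synthase Fasn (0.89, −0.028). A maximum over so many genes is high by selection, and apart from those of Cacnb1 and Tcf21 the second values were no higher than that of Angpt1.

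**Figure D5:**
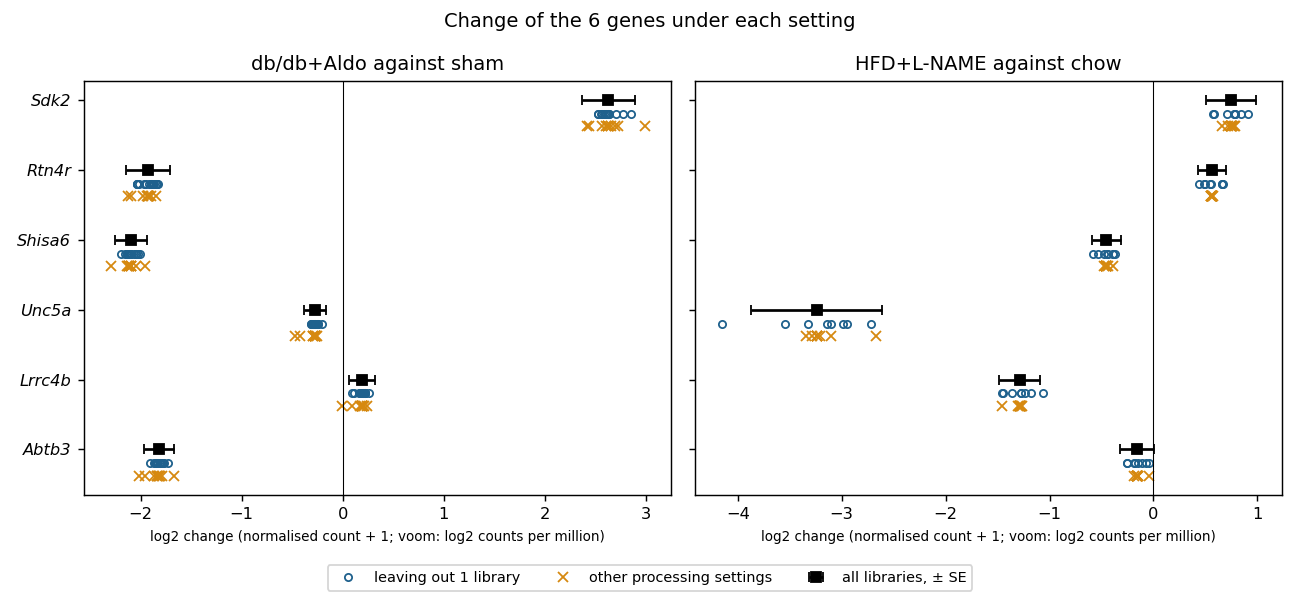
Log2 change of the 6 genes in db/db+Aldo against sham (left) and HFD+L-NAME against chow (right) hearts, with black squares and bars for all libraries ± SE, blue circles for fits that leave out 1 library and orange crosses for other settings. Unc5a in HFD+L-NAME hearts moves most, to −4.15 without replicate 1, and Lrrc4b in db/db+Aldo hearts reaches −0.0100.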

How the data were processed

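Poly(A) RNA of whole hearts was extracted with TRIzol and RNeasy and sequenced by BGI in paired-end reads, per the labels' protocols. The submitters' processing notes name featureCounts, DESeq2, limma, GRCm38 and mm10, with no roles. Aligner, annotation and strand use were not given in the sources used here. A batch-corrected table of 55487 genes was deposited by the authors, and its values are not counts as they stand. Within a run its values differed by whole numbers in 100% of cases (tolerance 0.001), and 10.2% lay below 0, so each is a count minus a shift per gene and run. The deposited comparison tables hold a mean signal per gene, per the file headers, from which shifts and size factors were solved, hence whole counts for 52392 genes. The log2 fold changes, test scores and p-values in the authors' deposited comparison tables were not used. This unit differs from the normalised expression first assumed. The recovered counts would allow a count test, but all fits used limma on the log2 scale.

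Recovered counts were divided by size factors, log2-transformed after adding 1, and fitted per model with limma 3.58.1 in R 4.3.3 (genes with a mean of at least 10, sex as covariate, variance trend, Benjamini-Hochberg adjustment, threshold 0.05). The fit was tested on simulated data. Python 3.11.15 with numpy 2.4.6, pandas 2.3.3 and matplotlib 3.10.9 recovered the counts and drew the figures. Any pair of replicates differed by a chi-square of 7.61 or more per gene, so no library was counted as a repeat. No source says more of how independent the hearts were, and p-values then measure only the spread between libraries, which may be technical.

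The 6 genes and all lists were chosen with earlier results of these data known. The text names the 6 genes, the called gene of each list with the smallest p per direction and comparison, 9 partners or relatives in any case, and for likeness the 2 genes with the highest r per gene in run 2 (mean of at least 50 in both runs). Alternatives were pseudocounts of 0.5 and 5, no minimum mean or a minimum of 50, total-count or quantile scaling, limma voom, a fit without sex, a block for the replicate number, the series of library names, leaving out each library, and leaving out 5 libraries doubted in an earlier analysis (replicates 1 and 7 of sham, 1 and 5 of db/db+Aldo and 3 of HFD+L-NAME). Values within name series and within sexes were added after the data were seen.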

Additional observations from a re-analysis of the deposited data

Results flagged for a closer look

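Of 92 sets of group values examined among the 6 genes and the list genes named, 5 held a library far from the rest of its group, and chance gives about 1 in 20. Sdk2 was at 40.9 normalised counts in db/db+Aldo replicate 5, against 122 to 205 in the other db/db+Aldo hearts. Unc5a was at 59.7 in HFD+L-NAME replicate 1, against 3.87 to 4.95 in the other HFD+L-NAME hearts. Lrrc4b was at 213 in HFD+L-NAME replicate 3, against 130.4 to 138 in the others. Among list genes, L1cam was at 126 in chow replicate 2, against 112 to 113 in the other chow hearts, and Lrrc4 at 4.87 in chow replicate 4, against 13.7 to 16.2.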

How the results depend on the processing

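The log2 changes of the 6 genes moved by less than the pooled SD between hearts in 262 of 263 refits. The exception was Unc5a in db/db+Aldo hearts, at −0.47 under total-count scaling. An SD is a wide measure here, since leaving out 1 library can hardly move a change that far, so the count says little about stability. For Unc5a in HFD+L-NAME hearts the SD was 1.27, and its change ran from −4.15 to −2.67. Without the 5 doubted libraries Sdk2 was at 2.99, Rtn4r at −2.09, Shisa6 at −2.05 and Abtb3 at −1.96 in db/db+Aldo hearts. The mean of at least 50 left Sdk2 untested in HFD+L-NAME hearts. Total-count scaling gave 558 genes higher and 4760 lower in db/db+Aldo hearts, with 11 and 47 list genes, and 0 list genes lower in HFD+L-NAME hearts. No minimum mean gave 13 list genes lower in db/db+Aldo and 1 in HFD+L-NAME hearts. Without sex in the fit 101 genes were higher and 85 lower in HFD+L-NAME hearts, with 1 list gene lower. Without the doubted libraries 90 genes were lower there, with 1 list gene lower. The cause of these shifts was not tested.

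Leaving out 1 library gave 1090 to 1850 genes higher and 955 to 1750 lower in db/db+Aldo hearts, and 82 to 170 higher and 60 to 137 lower in HFD+L-NAME hearts. List genes ran from 14 to 26 higher and 12 to 22 lower in db/db+Aldo hearts, and from 1 to 2 higher and 0 to 1 lower in HFD+L-NAME hearts. The 26 came without db/db+Aldo replicate 5. List genes lower numbered 12 without sham replicate 5 and 13 without sham replicate 3 or db/db+Aldo replicate 8. In the diet model, the genes higher numbered 90, 82 and 99 without chow replicates 1, 3 and 4, and 106 and 108 without HFD+L-NAME replicates 1 and 4. The genes lower numbered 60, 71, 67 and 69 without chow replicates 1 to 4, and 86, 90 and 79 without HFD+L-NAME replicates 1, 3 and 4. Of the 6 genes, 0 to 1 passed the sex contrast within HFD+L-NAME hearts and 0 to 1 its interaction, the 1 being Unc5a without replicate 2.

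The replicate numbers showed no pairing of the hearts in the db/db model, and 4 pairs are too few to settle it in the diet model. Same-numbered deviations correlated at −0.22 to 0.11 (7 pairs) in the db/db model, where 0 matched their own number best, and at 0.09 to 0.38 (4 pairs) in the diet model, where 2 did. The replicate block gave 842 genes lower in db/db+Aldo hearts, 11 list genes lower there and 0 in HFD+L-NAME hearts.

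Calls gained among partners were those of Rtn4 and Ntn1 given with their values in db/db+Aldo hearts. Among partners that did not pass, signs turned in db/db+Aldo hearts for Lingo1 under total-count scaling (−0.020) and for Abtb2 without the doubted libraries (0.018). Leaving out 1 library, Lrrc4 ran from −0.23 to 0.068, Abtb2 from −0.068 to 0.011 and Unc5b from −0.076 to 0.0044. Gria1, Robo2 and, in HFD+L-NAME hearts, Unc5a rest on few reads, which limits the precision of their changes. In run 2, Gria1, Robo2 and Clstn2 averaged under 10 in 1 group and met the minimum mean only through the other, as did Tubb3 in run 1. The filter thus favoured a difference in these genes.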
